A study of Mus musculus with 6 samples.

Results

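The genes described here are 9 components of the Hedgehog pathway that act where the signal is received and carried to the nucleus: the receptor Ptch1, the signal transducer Smo, the co-receptors Gas1, Boc and Cdon, the ligand antagonist Hhip, and the transcription factors Gli1, Gli2 and Gli3. All probe sets annotated to exactly 1 of these genes were taken, which gave 24 of the 34945 probe sets with a single gene on the array, and 9 of 18193 genes. Expression was compared between 3 arrays of neural crest stem cells (NCSC) and 3 arrays of mesenchymal stem cells (MSC).

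Both cell types were stromal cells cultured from the bone marrow of adult female mice aged 10 weeks, on a mixed C57BL/6 x SV129 background. All mice carried the same 2 transgenes, wnt1/CRE and R26R-lacZ, so that cells in which Wnt1 sequences had driven Cre, and the descendants of those cells, switch on lacZ. The cells received no treatment and were kept in Mesencult for at least 5 passages, after which clones were selected. The labels call the samples replicates without saying whether they came from separate mice or clones, so the p-values measure only the spread between these samples. If each cell type is represented by 1 clone, clone and cell type cannot be told apart.

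Hedgehog ligands bind Ptch1, which otherwise keeps Smo inactive, and Gas1, Boc and Cdon present the ligand to it. Active Smo moves into the primary cilium, where Gli2 and Gli3 are kept from being processed into repressors and Gli2 becomes an activator. Gli1, Ptch1 and Hhip are themselves transcribed in response to the signal and serve as its usual readout, with Ptch1 and Hhip dampening it. In mice, Hedgehog signals support the survival of the cranial neural crest, and Gli1 marks mesenchymal progenitors of the skeleton.

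Values are GCRMA intensities deposited by the authors, given here on the log2 scale, on which the lowest value of any array is 2.12. Values above 4 were taken as above background, and probe sets reaching them on 3 or more of the 6 arrays were tested. Differences are NCSC minus MSC, from limma's test over all 18640 tested probe sets with Benjamini-Hochberg adjustment, and a probe set was called at an adjusted p under 0.05. Because the cells were measured in bulk, fewer cells that express a gene and less RNA per cell cannot be told apart.

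Markers were read to check the labelled cell types. All 8 neural crest markers, among them Sox10 and Foxd3, were above the limit on every NCSC array, against 2 of 8 on every MSC array. Of 9 mesenchymal markers 7 were above it on every NCSC array and 6 on every MSC array, while Thy1 and Lepr were under it on all 6, which limits the check of the MSC label. All 7 tested mesenchymal markers were called, in both directions, against 64.1% of all tested genes. Vcam1 (-4.04), Pdgfra (-3.17) and Prrx1 (-1.80) were lower in NCSC and Eng (4.69), Pdgfrb (0.62), Cd44 (0.31) and Nt5e (at least 22.8-fold) higher. No endothelial marker out of 8 and no osteoblast marker out of 4 exceeded the limit on any array. Of 8 blood and macrophage markers 5 were under the limit on all arrays, among them Ptprc, Itgam and Adgre1, but Cd68 (at least 27.9-fold) and Lyz2 (1.97 on the log2 scale) were higher in NCSC, and Csf1r was not called. The summed linear intensity of the 5 smooth muscle markers was 21145 to 26269 in NCSC and 82631 to 89459 in MSC, with Acta2, Tagln and Cnn1 lower in NCSC, Des higher and Myh11 under the limit on all arrays. The sum of the 4 adipocyte markers was 94 to 146 in NCSC and 12037 to 14354 in MSC. It rests mainly on Fabp4, at 13.62 in MSC and 3.00 in NCSC. Pparg was also lower in NCSC, while Cebpa was not called and Adipoq was under the limit on all arrays. The summed glial markers reached 12659 to 14669 in NCSC and 1004 to 1181 in MSC. That sum rests mainly on L1cam, at 13.55 in NCSC and 5.42 in MSC, while Egr2 was lower in NCSC (-0.35), Gfap and Gap43 were under the limit everywhere and S100b was at 2.15 on NCSC 3. Nt5e, Cd68 and Des passed the filter described above through NCSC alone, and Cnn1 and Pparg through MSC alone. The filter fixed their directions, which are given as a description. The part of these programmes in the differences described below was not tested. Of the replicates, NCSC 3 had 4.93% and 4.73% of tested probe sets more than 2-fold from NCSC 1 and NCSC 2, which were that far apart for 0.456%. Likewise MSC 2 had 2.95% and 2.85% of probe sets more than 2-fold from MSC 1 and MSC 3, against 0.52% between those.

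NCSC had far less Gas1 and Boc than MSC, and about 2-fold less Smo. Gli3 was called higher in NCSC, also by about 2-fold, and no other of the 9 genes was, except Ptch1 when chromosome medians were removed. Ptch1 and Cdon were well above background in both cell types and were not called. Gli1 and Hhip, which report an active signal, were at background on all 6 arrays, and Gli2 lay at the limit. In all, 11 of the 24 probe sets passed the filter, representing 7 of the 9 genes. Of these 11, 6 were called lower in NCSC, covering 3 genes, 2 were called higher, both of Gli3, and 3 were not called. Over all tested probe sets 60.1% were called, 27.2% lower and 33% higher, and the median difference was 0.057, against -1.01 for the 11 member probe sets. Both Boc probe sets passed the filter through the MSC arrays alone, so their difference was built into the filter. Gas1, Smo and Gli3, like Boc, enter the median of the 11 by 2 probe sets each. The count of 6 and that median are given as a description, not as a shift of the 9 genes as a whole.

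**Figure D1:**
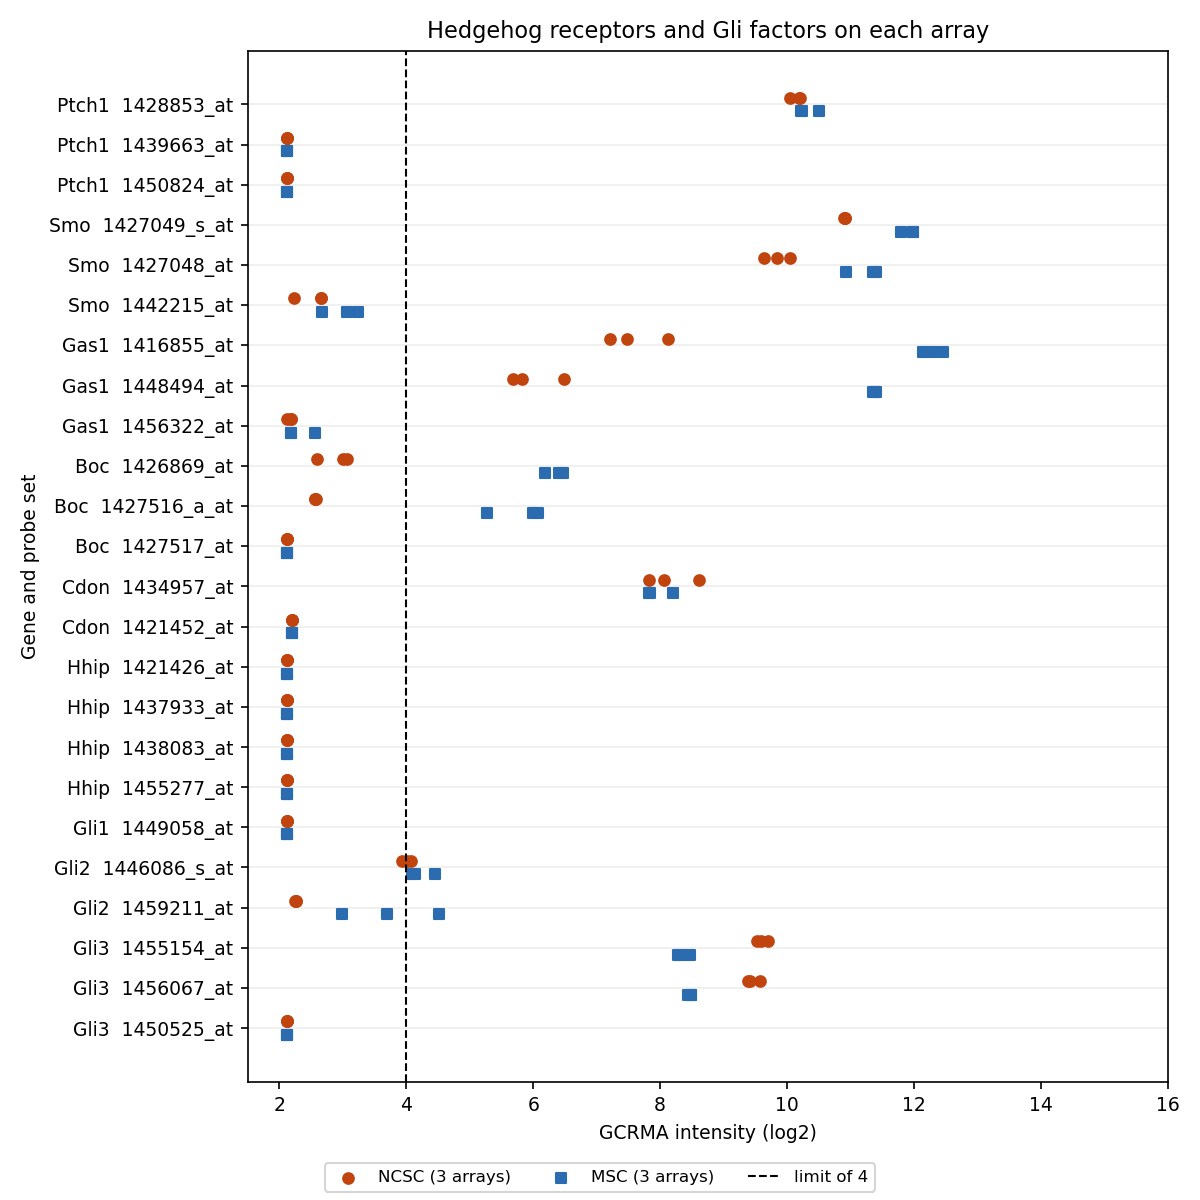
GCRMA intensity on the log2 scale (horizontal axis) of each of the 24 probe sets of the 9 genes, with 1 point per array for NCSC (circles, upper) and MSC (squares, lower) and a dashed line at the limit of 4. The Gas1, Boc and Smo points above the limit are shifted to the left in NCSC and those of Gli3 to the right, while 12 probe sets have all 6 points at or under the limit.

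Ptch1, the receptor whose transcription also rises with the signal, was expressed at like levels in both cell types. Its probe set 1428853_at had log2 intensities of 10.18, 10.20 and 10.04 on the NCSC arrays and 10.24, 10.50 and 10.21 on the MSC arrays. The NCSC arrays were all slightly lower and did not overlap with the MSC arrays, as was the case for 68.4% of all tested probe sets. The difference of -0.18 ± 0.11 (SE) had a 95% confidence interval of -0.45 to 0.091 and was not called (adjusted p = 0.208). Such an interval within 1 log2 unit of 0 was found for 54.6% of tested probe sets. The other 2 Ptch1 probe sets lay at 2.12 and 2.13 on all arrays, so the level rests on a single probe set.

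Smo, the membrane protein that Ptch1 restrains and that passes the signal on, fell in NCSC in both of its tested probe sets. The brighter one, 1427049_s_at, was at 10.91 ± 0.0076 in NCSC and 11.92 ± 0.10 in MSC (SD, n = 3 each), which is 2.02-fold lower in NCSC (difference -1.01 ± 0.085, SE, adjusted p = 0.000166). The other, 1427048_at, had 9.83, 9.64 and 10.05 in NCSC and 11.35, 10.92 and 11.40 in MSC. Every NCSC array was below every MSC array, and the difference was -1.38 ± 0.17 (adjusted p = 0.000788). Of all tested probe sets 68.4% were without overlap between the cell types, in either direction. Leaving out both MSC 2, the lowest of the MSC arrays here, and NCSC 3 gave -1.64 for this probe set. The remaining Smo probe set, 1442215_at, was under the limit on all arrays, at 2.23 to 2.66 in NCSC and 2.66 to 3.24 in MSC, and was not tested.

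The co-receptors showed the largest differences, and these were not shared by all 3. Gas1, a membrane-anchored protein first described as a growth arrest gene, was bright in MSC and much dimmer in NCSC. Probe set 1416855_at had 7.48, 7.21 and 8.13 in NCSC and 12.14, 12.46 and 12.28 in MSC. Probe set 1448494_at had 5.67, 5.83 and 6.48 in NCSC and 11.36, 11.41 and 11.39 in MSC. All NCSC arrays remained above the limit, and NCSC 3 was the highest of them in both probe sets. Gas1 was 25.8-fold and 42.0-fold lower in NCSC by these probe sets, with differences of -4.69 ± 0.24 and -5.39 ± 0.21 (SE, adjusted p = 2.22e-05 and 6.77e-06). As many as 312 and 252 of the 18640 tested probe sets, themselves included, had differences at least as negative. Without NCSC 3 and MSC 2 the differences were -4.87 and -5.62. The remaining Gas1 probe set, 1456322_at, stayed between 2.12 and 2.55 on all arrays.

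Boc, an immunoglobulin-type receptor that binds Hedgehog ligands, was detected in MSC and was under the limit in NCSC. In probe set 1426869_at the values were 3.01, 2.59 and 3.07 in NCSC and 6.41, 6.19 and 6.47 in MSC. In probe set 1427516_a_at they were 2.58, 2.56 and 2.56 in NCSC and 5.99, 6.07 and 5.27 in MSC. The groups did not overlap in either probe set, but both probe sets passed the filter through MSC alone, which fixed this and the direction. With values under the limit set to it, Boc was at least 5.12-fold and at least 3.42-fold lower in NCSC. The fitted differences of -3.47 ± 0.16 and -3.21 ± 0.22 (SE, adjusted p = 1.27e-05 and 7.02e-05) rest in part on values below background. Both calls are given as a description. The remaining Boc probe set was at the lowest value of 2.12 on every array.

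Cdon, the close relative of Boc with the same role at the receptor, did not follow it. Its probe set 1434957_at had 7.82, 8.07 and 8.61 in NCSC and 7.84, 8.20 and 7.83 in MSC. The groups overlapped, NCSC 3 was the highest array, and the difference of 0.21 ± 0.22 (SE) was not called (95% confidence interval -0.34 to 0.76, adjusted p = 0.444). The second Cdon probe set was at 2.19 on all arrays. Compared within each array, the log2 ratio of Gas1 to Cdon was lower in NCSC than in MSC by a difference of -4.90. The corresponding difference was -0.83 for Smo against Ptch1. A ratio of Boc to Cdon was compared too and is not given, since Boc was under the limit on all NCSC arrays. In both ratios given the NCSC arrays lay apart from the MSC arrays, which gives an exact two-sided permutation p of 0.1 (0.1 also after adjustment over the 3 compared), the smallest that 3 arrays against 3 allow. The ratios were added later and set genes called lower against genes not called, so this separation is given as a description.

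**Figure D2:**
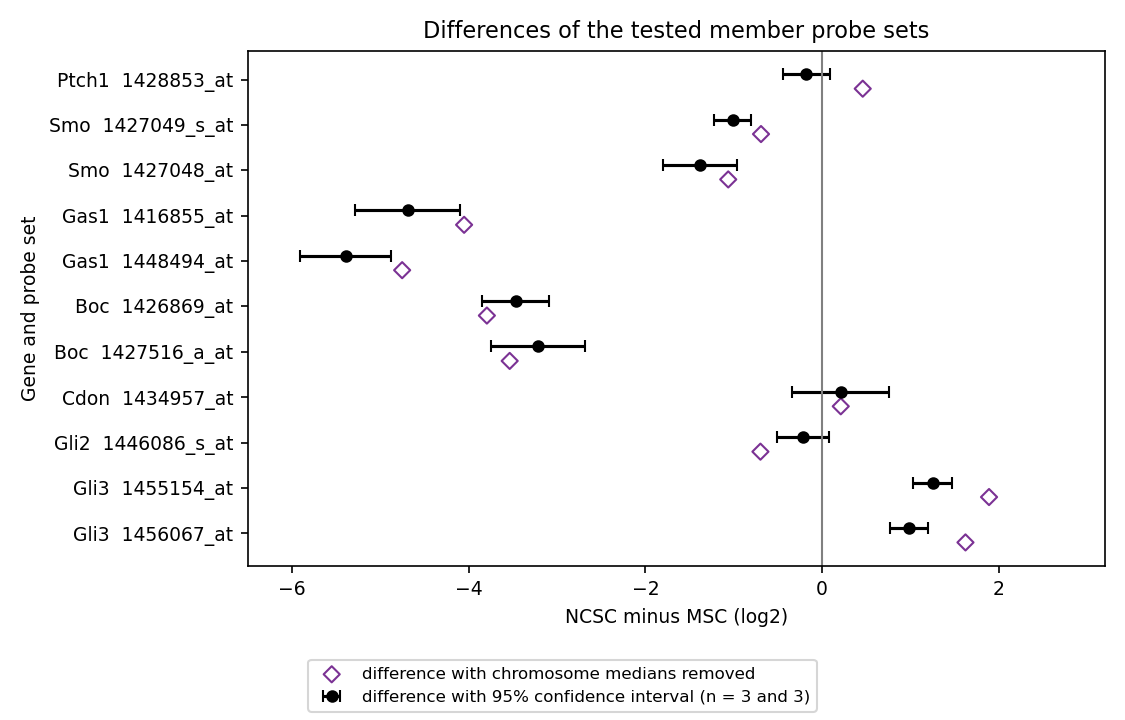
Difference between NCSC and MSC (NCSC minus MSC, log2) of the 11 tested probe sets, as filled points with 95% confidence intervals (n = 3 and 3), and as open diamonds after the median difference of each chromosome was removed. Gas1 at -4.69 and -5.39 and Boc at -3.47 and -3.21 lie farthest to the left and Gli3 at 1.25 and 0.99 farthest to the right, while the diamond of Ptch1 is on the other side of 0 from its point.

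Hhip, a membrane protein that captures Hedgehog ligands and is induced by the signal, was measured by 4 probe sets. All 4 were at the lowest value of 2.12 on every NCSC array and every MSC array. None was tested, and a level below what these probe sets can detect was not measurable.

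Among the transcription factors, Gli1, the activator whose own transcription depends on the signal, was between 2.12 and 2.13 on all arrays in its single probe set 1449058_at. Gli1 expression was not detectable in either cell type on this array. Gli2, the main activator of the pathway, was barely measured. Probe set 1446086_s_at had 4.01, 4.08 and 3.94 in NCSC and 4.45, 4.08 and 4.13 in MSC, all close to the limit, and was not called (difference -0.21 ± 0.12, SE, adjusted p = 0.176). It was called lower in NCSC after quantile normalization (-0.34, adjusted p = 0.0408). Probe set 1459211_at had 2.26, 2.24 and 2.26 in NCSC and 4.51, 2.98 and 3.70 in MSC, with only MSC 1 above the limit, so it was not tested. Under a filter that asks for only 1 array above the limit it was called lower (-1.48, adjusted p = 0.0153), and without any filter it was not (adjusted p = 0.0745).

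Gli3, which is processed into the principal repressor of the pathway when no ligand is present, rose in NCSC. Probe set 1455154_at had 9.69, 9.53 and 9.59 in NCSC and 8.31, 8.46 and 8.29 in MSC. Probe set 1456067_at had 9.39, 9.41 and 9.57 in NCSC and 8.43, 8.49 and 8.49 in MSC. In both, every NCSC array exceeded every MSC array, and the spread within a cell type was at most 0.10 (SD, n = 3). Such a lack of overlap, in either direction, was found for 68.4% of all tested probe sets. Gli3 was 2.38-fold and 1.98-fold higher in NCSC, with differences of 1.25 ± 0.092 and 0.99 ± 0.086 (SE, adjusted p = 9.79e-05 and 0.000192). The remaining probe set, 1450525_at, was at 2.12 throughout. Without NCSC 3 and MSC 2 the differences were 1.32 and 0.94, and the 8 called member probe sets were called in the same direction with the remaining 2 arrays per cell type. The direction of the Boc probe sets among them was fixed by the filter. Of all tested probe sets 15.1% were called at least 2-fold higher and 13.1% at least 2-fold lower in NCSC.

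**Figure D3:**
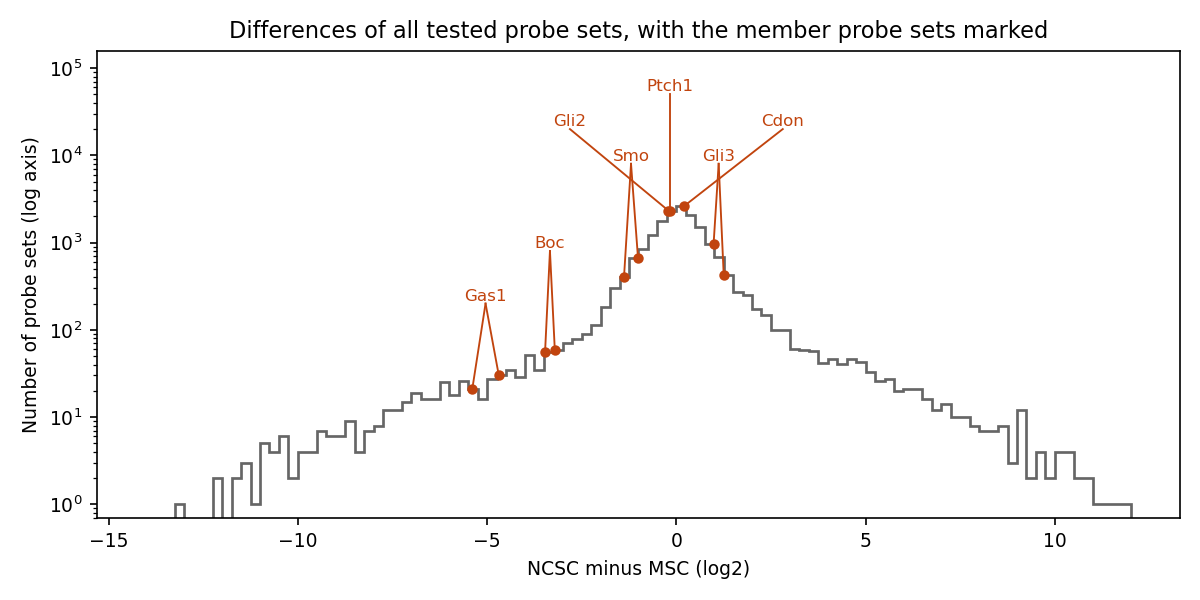
Distribution of the differences (NCSC minus MSC, log2, bins of 0.25) of all 18640 tested probe sets as a line on a log axis, with a point for each of the 11 tested member probe sets. Gas1 and Boc lie in the left tail, Smo and Gli3 on the left and right flanks, and Ptch1, Gli2 and Cdon near the peak.

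Ptch1, Gas1 and Gli3 all lie on chromosome 13, where expression was shifted as a whole. The 687 tested probe sets of that chromosome had a median difference of -0.64, and 80.1% of them were lower in NCSC. Median differences were -0.32 for chromosome 6, which holds Smo, 0.33 for chromosome 16, which holds Boc, -0.00011 for chromosome 9, which holds Cdon, and 0.49 for chromosome 1, which holds Gli2. After these medians were removed, Gas1 was still lower in NCSC by both probe sets (-4.05 and -4.75), as were Smo (-0.69 and -1.06) and Boc (-3.79 and -3.54), and Gli3 was higher (1.89 and 1.62), all of them called. The result for Ptch1 turned, to a difference of 0.46 that was called higher (adjusted p = 0.0141), and Gli2 was called lower (-0.70, adjusted p = 0.00409). What shifted whole chromosomes was not tested.

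The 3 genes of chromosome 13 moved in 3 ways, with Gas1 lower, Gli3 higher and Ptch1 not called, and their promoter windows are shown for comparison. The sequences are from RefSeq (GRCm38.p6) and run 5′ to 3′ on the strand of the gene, from 250 bases before to 50 bases after its start. Capitals mark exact matches on either strand to 4 motifs, which may overlap. The site bound by Gli proteins was searched as GACCACCCA. The CCAAT box was searched by its 5 letters. GC boxes, which bind Sp1-type factors, were searched as GGGCGG. Finally, the TATA box was searched as TATAAA.

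Gas1, chr13:60177486-60177785, minus strand: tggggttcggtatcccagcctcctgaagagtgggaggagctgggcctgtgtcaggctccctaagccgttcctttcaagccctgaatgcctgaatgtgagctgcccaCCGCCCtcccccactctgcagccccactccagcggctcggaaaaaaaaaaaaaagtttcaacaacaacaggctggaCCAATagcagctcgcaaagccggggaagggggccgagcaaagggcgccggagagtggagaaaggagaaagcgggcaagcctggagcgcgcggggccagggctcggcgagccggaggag

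Gli3, chr13:15463473-15463772, plus strand: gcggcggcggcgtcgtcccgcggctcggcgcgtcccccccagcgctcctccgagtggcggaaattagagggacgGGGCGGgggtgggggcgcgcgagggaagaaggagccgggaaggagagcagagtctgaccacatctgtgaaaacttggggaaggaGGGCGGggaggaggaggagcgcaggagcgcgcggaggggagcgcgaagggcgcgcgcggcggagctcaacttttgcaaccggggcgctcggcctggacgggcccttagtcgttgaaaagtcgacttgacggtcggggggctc

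Ptch1, chr13:63565686-63565985, minus strand: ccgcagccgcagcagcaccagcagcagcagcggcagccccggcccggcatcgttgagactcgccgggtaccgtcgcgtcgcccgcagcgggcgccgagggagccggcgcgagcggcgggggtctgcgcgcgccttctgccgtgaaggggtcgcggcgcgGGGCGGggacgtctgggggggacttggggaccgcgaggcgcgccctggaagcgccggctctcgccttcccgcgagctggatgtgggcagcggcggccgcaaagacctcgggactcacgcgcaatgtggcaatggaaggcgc

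None of the 3 windows held the Gli site, nor did those of Smo, Cdon, Hhip and Gli2, which with these 3 make up the 7 of 9 genes with a window in the table. The Gli site was present in 0.253% of all 32851 promoter windows of this length. The Gas1 window had 1 CCAAT box and 1 GC box, that of Gli3 had 2 GC boxes and that of Ptch1 had 1. A CCAAT box was found in 37.4%, a GC box in 35.7% and a TATA box in 13.6% of all windows. These matches describe the letters of the windows only.

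Genes with a profile close to that of Gas1 were looked up among the other tested genes by the distance between log2 values centred on each gene's own mean over 6 arrays. The nearest to probe set 1448494_at were Bicc1, which encodes an RNA-binding protein, at a distance of 0.27, the transcriptional coactivator Eya4 at 0.43, and the cytidine deaminase gene Cda at 0.44. Bicc1 had 5.91, 5.76 and 6.49 in NCSC and 11.49, 11.57 and 11.33 in MSC. As in Gas1, the NCSC arrays were several log2 units lower and NCSC 3 was the highest of them, which follows from how the gene was picked.

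The rest of the pathway was described with 5 lists of other genes, each gene by its brightest tested probe set, in a fit over 10501 genes. Over all tested genes 64.1% were called, 35% higher and 29.1% lower in NCSC, with a median difference of 0.056. Of 145 listed genes 108 were tested, of which 63 (58.3%) were higher, 15 (13.9%) lower and 30 not called in NCSC, with a median of 0.54. Of the 108, 6 passed the filter through 1 cell type alone.

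Of the 3 Hedgehog ligands, Dhh, known as the ligand made by Schwann cells, was called higher in NCSC, while Shh and Ihh were at 2.12 on all arrays. Dhh had 7.76, 6.87 and 7.06 in NCSC and 4.35, 4.35 and 3.10 in MSC, which is at least 7.97-fold higher in NCSC (adjusted p = 0.000683). Scube3, a secreted protein of a family that helps release the ligands, had 8.33, 7.89 and 7.06 in NCSC and 2.65, 2.65 and 2.24 in MSC and was at least 13.5-fold higher in NCSC. It passed the filter through NCSC alone, so its call is a description. Of the 9 genes on the list for ligands and their release 4 were tested, with 2 higher, 1 lower and 1 not called, and a median of 1.68. Over all tested genes 64.1% were called. The gene that fell, Disp1, which exports the ligands from the cells that make them, differed by -0.34 ± 0.088 (SE, adjusted p = 0.0159) in its brightest probe set and by -2.18 ± 0.13 in the other. The brighter probe set lost its call without NCSC 2 (adjusted p = 0.0532) or MSC 3 (0.0511), over a range of 0.000469 to 0.0532 for this probe set. The acyltransferase Hhat, which attaches palmitate to the ligands, had means of 8.17 in NCSC and 8.11 in MSC and was not called. Hhat lies on chromosome 1, where the median difference of tested probe sets was 0.49, and its means are given without that median removed. It is named, like Evc2, Prkaca and Sufu in the next paragraphs, after its values were seen.

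Of the other genes acting on the receptor or on Smo, 11 of 17 were tested, with a median of 0.59. In NCSC 7 were higher, none lower and 4 not called. The share called was 63.6%, against 64.1% of all tested genes (35% higher, 29.1% lower). Evc, a ciliary partner of Smo, had 9.79, 9.54 and 9.73 in NCSC and 8.47, 8.61 and 8.64 in MSC. It rose by 1.12 ± 0.10 (SE, adjusted p = 0.000184), while its partner Evc2 was at means of 9.76 in NCSC and 9.77 in MSC. Both genes lie on chromosome 5, where the median difference of tested probe sets was 0.49. The smallest difference of Evc under the alternative settings was 0.62, still called. The means of Evc2 are given without that median removed. The arrestin Arrb1, which aids the entry of Smo into the cilium, rose by 1.39 ± 0.26, the ubiquitin ligase Mgrn1, which limits Smo at the cell surface, by 0.70 ± 0.10, and Iqce, an anchor of the Evc complex, by 0.62 ± 0.11. Iqce also lies on chromosome 5. Removing that chromosome's median left its brightest probe set at 0.13 and not called (adjusted p = 0.365, against 0.000752 to 0.017 for this probe set under the other settings). The other kept Iqce probe set gave 2.14 ± 0.23 (SE) before removal of the chromosome's median of 0.49. Atp6ap2, an accessory protein of the vacuolar proton pump, rose by 0.51 ± 0.081. With the medians removed, 1 gene of this list was called lower.

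Among 23 tested regulators of the Gli proteins, 11 were higher, 3 lower and 9 not called in NCSC, with a median of 0.15. The share called was 60.9% (47.8% higher, 13% lower), against 64.1% of all tested genes (35% higher, 29.1% lower). The kinase Dyrk2, reported to promote degradation of Gli2, was lower, at 11.34, 11.42 and 11.45 in NCSC and 13.22, 13.06 and 13.18 in MSC (-1.75 ± 0.082, SE, adjusted p = 1.12e-05), and its other 3 kept probe sets gave -1.86 to -1.93. Higher were Mtss1, a scaffold that binds Gli factors (1.57 ± 0.12), the protein kinase A subunit Prkacb (1.07 ± 0.094), the ubiquitin ligase Itch, which degrades Gli1 (0.79 ± 0.073), and the kinase Stk36 (1.15 ± 0.093), known as Fused in flies. Stk36 was at exactly 4.12 on all 3 MSC arrays and between 5.18 and 5.43 in NCSC. Unlike Prkacb, the protein kinase A subunit Prkaca was lower in NCSC, by -0.94 ± 0.10 (SE, adjusted p = 0.000376). Its other kept probe set gave -1.60. Prkaca lies on chromosome 8, where tested probe sets had a median difference of -0.94 and 89% were lower in NCSC. The part of that shift in the Prkaca difference was not tested. Sufu, the main inhibitor that holds Gli proteins in the cytoplasm, had means of 8.44 in NCSC and 8.35 in MSC and was not called. The count of 3 lower genes was 6 without MSC 2 and NCSC 3.

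The genes of the primary cilium, the organelle on which Hedgehog signalling in mammals depends, made up the largest list. Of 52 tested members 34 (65.4%) were higher, 4 (7.69%) lower and 14 not called in NCSC, with a median difference of 0.68. Over all tested genes 35% were higher and 29.1% lower. The number higher ranged from 29 to 36 over the alternative settings. Bbs1, a subunit of the BBSome that carries membrane proteins within cilia, had 7.19, 7.17 and 7.09 in NCSC and 3.87, 3.78 and 3.49, under the limit, in MSC, and was at least 8.87-fold higher in NCSC. It was the 1 cilium gene that passed the filter through NCSC alone, which fixed its direction. The transition zone genes Cc2d2a, B9d2 and Tctn2 rose by 1.36 ± 0.078, 1.64 ± 0.098 and 2.59 ± 0.19 (SE), and Ift80, an intraflagellar transport protein, by 1.94 ± 0.12. Like other genes of this list, Cc2d2a and Tctn2 lie on chromosome 5, where the median difference of tested probe sets was 0.49. Their smallest differences under the alternative settings were 0.87 and 2.10, both called. The range of 29 to 36 given above for the number higher includes the setting with chromosome medians removed. All arrays of NCSC exceeded those of MSC for the 5 cilium genes named here. These were picked for the smallest p on the list, so this is a description. Of all tested probe sets, 68.4% did not overlap between the cell types.

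Of 18 tested genes reported as Gli targets in various tissues, 9 were higher, 7 lower and 2 not called in NCSC, with a median of 0.17. The share called was 88.9%, against 64.1% of all tested genes. The number higher was 5 without MSC 1 and also without MSC 3. The 5 genes with the smallest p were all lower. Osr1, a regulator of mesoderm, had 3.82, 3.65 and 3.23 in NCSC and 10.32, 10.00 and 10.49 in MSC and was at least 77.2-fold lower in NCSC. Bounds for the fall were 38.1-fold for the growth factor Bmp4 and 4.19-fold for Pax9, a factor of the sclerotome. These 3 genes and Foxf2 passed the filter through MSC alone, so 4 of the 7 lower calls had their direction fixed by the filter and are given as a description. The forkhead gene Foxc2 fell by 4.40 ± 0.24 (SE), with 5.17, 5.17 and 6.02 in NCSC and 9.89, 9.92 and 9.76 in MSC. Foxc2 lies on chromosome 8, where the median difference of tested probe sets was -0.94. Its difference of smallest size under the alternative settings was -3.46, still called. Cyclin D2 (Ccnd2) fell by 1.64 ± 0.082, and its other 6 kept probe sets gave -1.70 to -2.49. All of these are also controlled by other pathways, and their dependence on Gli proteins was not measured.

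**Figure D4:**
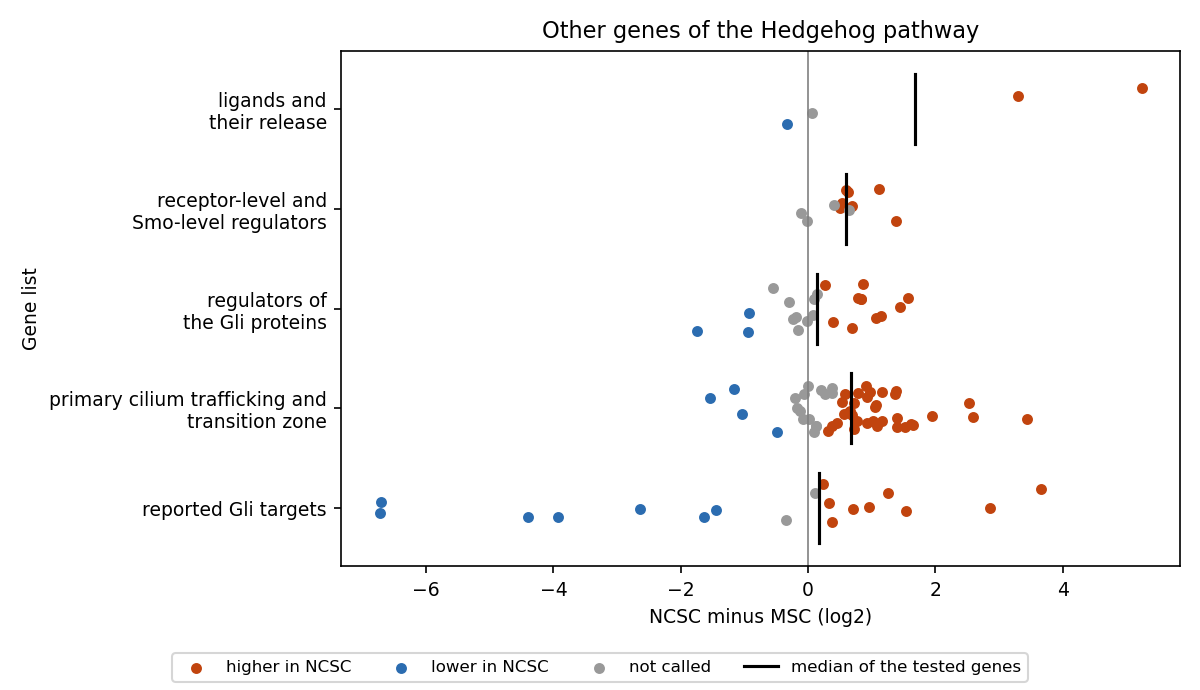
Difference between NCSC and MSC (NCSC minus MSC, log2) of each tested gene of the 5 lists, coloured by whether it was called higher, called lower or not called, with a black bar at the list's median. The points of the cilium list lie mostly to the right of 0 (median 0.68), and those of the reported Gli targets extend farthest to the left, to -6.73.

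**Figure D5:**
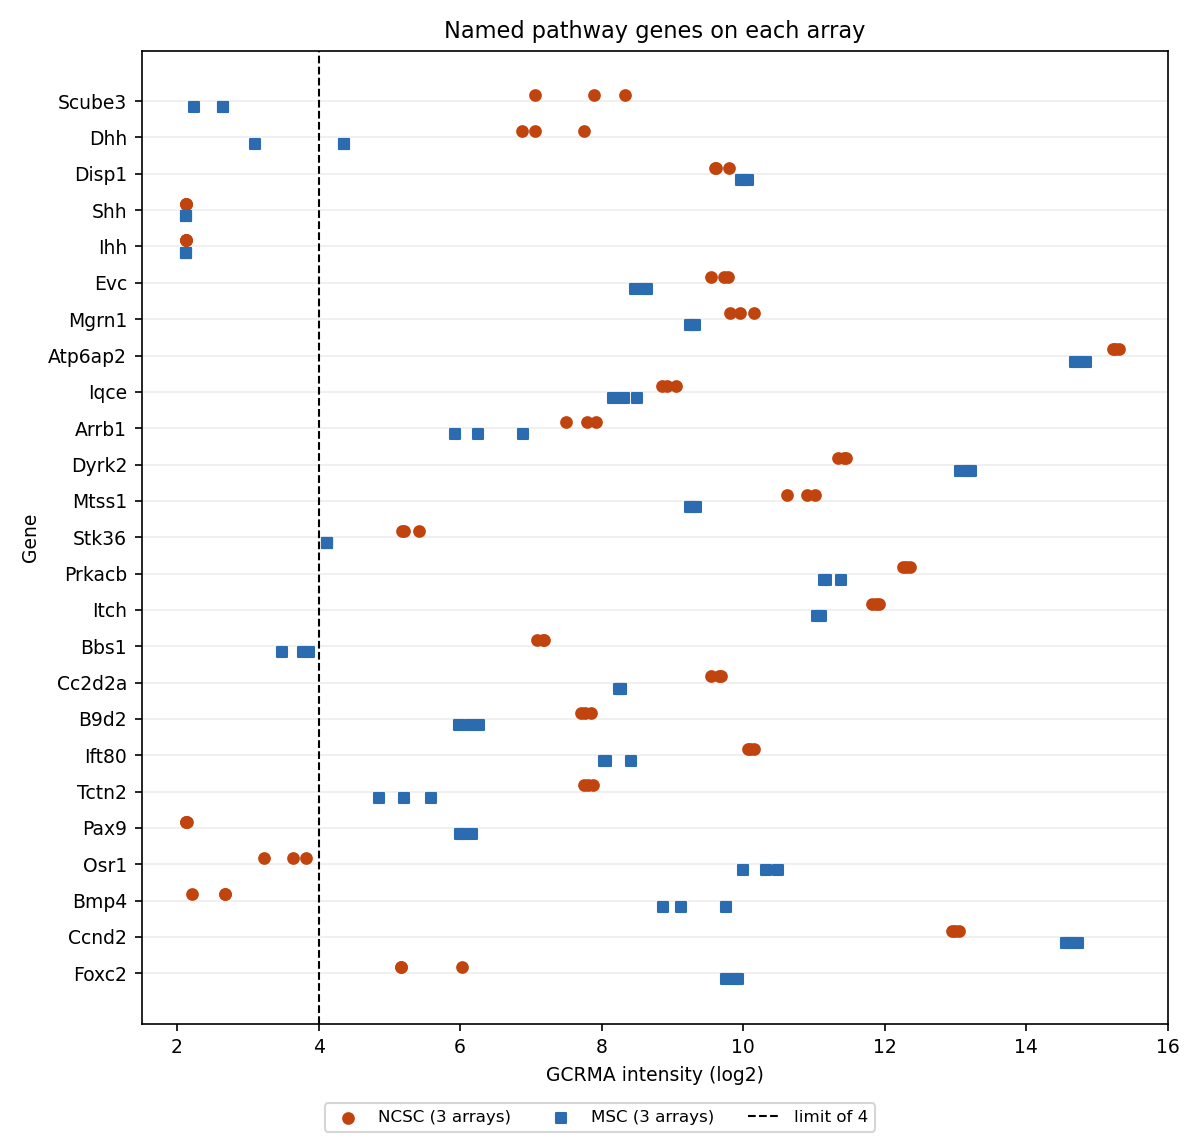
GCRMA intensity on the log2 scale of the pathway genes named in the text on each NCSC array (circles, upper) and each MSC array (squares, lower), with a dashed line at the limit of 4. Dhh and Scube3 are above the limit on all NCSC arrays, Shh and Ihh are at 2.12 on all 6 arrays, and Pax9, Osr1 and Bmp4 are above it only on the MSC arrays.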

How the data were processed

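The authors deposited 1 table of GCRMA intensity values for 45101 probe sets on 6 arrays (GCRMA per the submitters' processing notes, version not given in the sources used here). The deposited values lie between 4.36 and 116597, so the scale was taken as linear, and log2 was applied here without further normalization. Between 33.5% and 34.5% of probe sets per array were at the lowest value, and the number of arrays limits the precision. Genes were named through the platform annotation, with chromosomes from RefSeq GRCm38.p6 for 34741 of 34945 probe sets with 1 gene.

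Probe sets above 4 on at least 3 arrays entered limma's model (version 3.58.1, R 4.3.3) without covariates, with moderated variances. A separate fit took each gene by its brightest kept probe set. Bounds set values under 4 to 4. The code was tested on simulated data. Members and lists were chosen with earlier results of these data known. Named genes are all members, the 3 ligands, up to 5 called genes per list with the smallest p, and the 3 nearest to the member with the largest difference. Comparisons within arrays and the CCAAT, GC and TATA boxes were added later. A planned comparison of the Gli proteins is not reported here. In all, 17 alternative settings were tried.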

Additional observations from a re-analysis of the deposited data

How the results depend on the processing

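The calls of Gas1, Boc, Smo and Gli3 and their directions held under all 17 alternatives in which each probe set was fitted, as did the absence of a call for Cdon. Boc passed the main filter through MSC alone, so its calls are given as a description. Ptch1 reversed with chromosome medians removed, to 0.46. With only the brightest probe set of each gene, 1 member probe set was higher and 3 were lower, and 6731 features were called against 11211, since fewer were fitted. Regulators of the Gli proteins called lower numbered 5 with quantile normalization, 5 with a trended and robust fit, 6 with array weights, 6 with the mean of a gene's probe sets and 6 without MSC 2 and NCSC 3, against 3, and the cause was not tested. With chromosome medians removed, 2 ligand and release genes and 1 receptor-level gene were called lower. With single arrays left out, ligand and release genes called lower ranged from 0 to 1 and Gli targets called higher from 5 to 8. The replicate block gave 0 lower ligand and release genes, since Disp1 was no longer called (adjusted p = 0.052). Deviations of same-numbered NCSC and MSC arrays correlated at -0.094, 0.0656 and 0.0436, so the numbers were not taken to pair the samples. The values cannot show expression under the background limit, which bears on Gli1, Gli2 and Hhip, and no replicate is known to be a separate clone.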

Other observations

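The following genes of the pathway lists were picked after their values were seen. The forkhead gene Foxf1 had 9.41, 9.39 and 8.52 in NCSC and 6.50, 5.95 and 6.31 in MSC, a rise of 2.85 ± 0.28 (SE, adjusted p = 0.000247). Its paralog Foxf2, active in many of the same mesenchymal tissues, was at 3.01, 2.50 and 2.66 in NCSC and 5.19, 5.42 and 5.48 in MSC, at least 2.57-fold lower in NCSC. Foxf2 passed the filter through MSC alone, so its direction was fixed by the filter.

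Sfrp1, a secreted Wnt antagonist on the list of Gli targets, was higher in NCSC in all 4 of its kept probe sets, by 1.55, 3.67, 5.71 and 6.19 on the log2 scale. The 4 cilium genes that were lower in NCSC included Ofd1, a centriole protein (-1.17 ± 0.11, SE), and the retrograde ciliary motor Dync2h1, at 3.66, 3.53 and 4.20 in NCSC and 5.40, 5.32 and 5.31 in MSC, at least 2.42-fold lower.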
